A study of Mus musculus with 4 samples.

Results

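The 9 genes described here encode orphan nuclear receptors, grouped by name as receptors of neural progenitors. They are the COUP transcription factors Nr2f1, Nr2f2 and Nr2f6, the Tlx receptor Nr2e1, the testicular receptors Nr2c1 (TR2) and Nr2c2 (TR4), the germ cell nuclear factor Nr6a1, and Nr4a1 and Nr4a2 of the NGFI-B family. They were chosen by name, and every probe set that the array annotation assigns to 1 of these genes alone was taken. That gave 34 probe sets for 9 of the 18193 genes on the array with such a probe set. A probe set is a group of short probes that together report 1 transcript. The cells were telencephalic neuroepithelial cells of ICR mice, measured on 4 arrays. Cells of embryonic day 11.5 (E11.5) had been cultured for 1 day and cells of embryonic day 14.5 (E14.5) for 4 days, with 2 arrays in each group. All cultures were grown on polyornithine and fibronectin in medium with basic FGF at 10 ng/ml, which keeps precursors dividing. The age of the embryo and the time in culture changed together, so they cannot be told apart. The labels give no sex, no number of embryos and no statement that the 2 arrays of a group came from separate cultures, so p-values reflect the spread between arrays alone, which may be technical.

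Nuclear receptors are transcription factors that bind DNA through a pair of zinc fingers and share a carboxy-terminal domain that holds a ligand in many family members. Orphan receptors were named for lacking a known natural ligand. Most recognise the hexamer AGGTCA, alone or as a repeat, and several of them act mainly as repressors that recruit histone deacetylases. In the developing forebrain the COUP factors shape regional identity and the timing with which progenitors pass from making neurons to making glia. Tlx keeps neural stem cells dividing, and the NGFI-B receptors are induced rapidly by growth factors, depolarisation and cyclic AMP.

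The markers on these arrays set the cells beside which the receptors were read. All 13 telencephalic progenitor markers on the array, from a list that includes Nes, Sox2 and Pax6, passed the filter on low signal. At E14.5 3 of them were higher and 5 lower, while their summed scaled signal went from 23546 to 25371 at E11.5 to 30297 to 31376 at E14.5. Bright genes weigh most in such sums, here among others Fabp7 (means of 7429 and 11181) and Sox2 (2730 and 4143). The 5 lower genes were dimmer than these. Of 13 neuron markers 12 were lower and none was higher, and their sum went from 16263 to 16929 to 5315 to 5517. Markers of Cajal-Retzius cells and of caudal interneurons, types in which Nr2f2 is known to be expressed, were pooled in 1 list. Of these 12 of 16 were lower and 1 higher, with sums of 6055 to 6370 and 1071 to 1874. The higher one was Htr3a, with means of 59.3 and 168, while Prox1 (48.3 and 53.8) did not pass and Vip lay below the filter. The lower ones include Dlx1, Dlx2, Dlx5, Gad1 and Gad2, found in interneurons at large, so the count does not speak for caudal interneurons alone. Astrocyte markers were higher for 10 of 11 (5981 to 6331 against 18391 to 23529), oligodendrocyte markers for 8 of 8 (707 to 924 against 18711 to 20574) and microglial markers for 8 of 10 tested (261 to 370 against 1846 to 1953). Some of these, such as Aqp4, Gpr17 and C1qa, reached the filter only through their E14.5 signal. Some of the lower markers above, such as Tbr1 and Ebf2, reached it only through their E11.5 signal. Of 16 endothelial and pericyte markers 8 lay below the filter, among them Pecam1, Cdh5, Tie1 and Cldn5. Of the other 8, with sums of 1116 to 1163 and 875 to 881, 2 were higher and 2 lower. Nrp2, also on the list of genes linked to COUP factors, weighed most at E11.5 (means of 788 and 171). Cspg4, also on the oligodendrocyte list, weighed most at E14.5 (6.92 and 393), so these sums do not stand for vascular cells alone. Meningeal and mesenchymal markers were lower for 4 of 8 tested and higher for 1, while their sum went from 1996 to 2186 to 4072 to 4086. The gene that was higher is Pdgfra, also known in oligodendrocyte precursors, with means of 73.9 and 3204. The part of these cell mixtures in the results below was not tested, and in such bulk RNA fewer cells of a type and less RNA per cell cannot be told apart.

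At their brightest probe sets Nr2f2 and Nr4a2 fell between E11.5 and E14.5, and the brightest probe set of each of the other 7 receptors did not pass the test. The arrays differed in overall brightness, so each was multiplied by 1 factor to a common trimmed mean of 174, and all signals below are scaled in this way. Differences are E14.5 minus E11.5 on a log2(signal + 12.8) scale, where 12.8 is a pseudocount that shrinks the differences of dim probe sets. They are given ± SE with n = 2 arrays per group and were tested with limma, with Benjamini-Hochberg adjustment over all 27022 probe sets whose mean signal reached the filter of 27.3. An adjusted p under 0.05 counted as passing. Each gene was represented by its brightest tested probe set. Of the 9 genes 2 were lower and 0 higher, where 13.6% of all 12952 genes tested were lower, 14.3% higher and 27.8% one or the other. By unadjusted limma p under 0.05 the counts for the 9 genes were also 2 lower and 0 higher. At that threshold 2519 of all 12952 genes were lower and 2674 higher. Both E14.5 arrays lay below both E11.5 arrays for 2 of the 9 genes and above them for 0, with 31% and 34.6% over all genes. The 2 of 9 that passed is therefore near the share that passed among all genes. The median difference of the 9 genes was 0.084 and that of all genes 0.029.

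**Figure D1:**
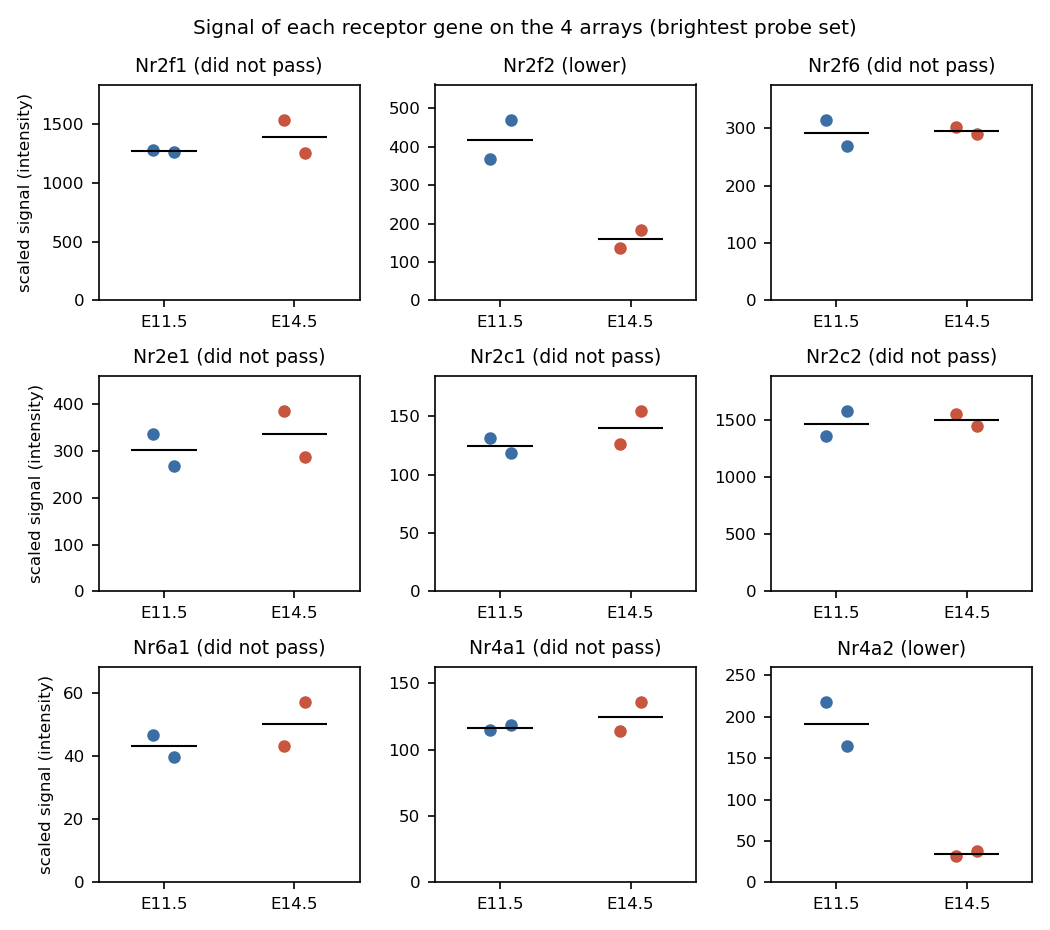
Scaled signal (linear intensity, axis from 0) of the brightest probe set of each receptor on the 2 E11.5 arrays (blue) and 2 E14.5 arrays (red); points are arrays and black bars group means, and each panel has its own axis because signals of different probe sets cannot be compared. Both E14.5 arrays lie below both E11.5 arrays for Nr2f2 and Nr4a2, while the points of the other 7 genes overlap.

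Among the COUP factors the response was divided. Nr2f2, also named COUP-TFII, marks ventral and caudal parts of the telencephalon and is needed for the caudal interneurons. Its brightest probe set, 1416159_at, read 368 and 469 at E11.5 and 137 and 183 at E14.5. Both E14.5 arrays were below both E11.5 arrays, with a group mean 0.383 times that of E11.5 and a difference of -1.32 ± 0.20 (adjusted p = 0.000947 in limma). The other 3 probe sets of Nr2f2 that passed the filter were lower as well. Probe set 1416158_at read 238 and 271 at E11.5 against 69.6 and 82.2 at E14.5 (-1.59 ± 0.20). Probe set 1436475_at read 220 and 236 against 87.4 and 82.5 (-1.30 ± 0.19). Probe set 1416160_at read 69.1 and 109 against 21.7 and 27.8 (-1.42 ± 0.31), a call that ended with the second E11.5 array left out (-1.13, adjusted p = 0.108). These 4 probe sets lay within 0.29 of each other in log2 difference, and 3 of them carry 1 cDNA accession in the annotation, so they are not independent readings.

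The other 2 probe sets assigned to Nr2f2 lay below the filter and were not tested. Probe set 1444229_at read 12.6 and 27.4 at E11.5 and 18.5 and 23.8 at E14.5, and its groups overlapped. Probe set 1431237_at read 2.85 and 5.93 at E11.5 against 17.4 and 14.9 at E14.5, which is the opposite order to the 4 brighter ones at signals near the pseudocount. Of the 14 other settings tried, none changed the direction or the call of the brightest Nr2f2 probe set. Without scaling of the arrays its difference was -2.06, and in that setting the median of all genes was -0.69 and every receptor and every gene named from the pathway lists had a lower value.

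Nr2f1, or COUP-TFI, is the close relative of Nr2f2 that patterns the cortex along its anterior-posterior axis. It has a single probe set, 1418157_at, which read 1284 and 1265 at E11.5 and 1533 and 1253 at E14.5. One E14.5 array was above both E11.5 arrays and the other just below them. The 95% interval of the difference ran from -0.19 to 0.43, so a change as large as that of Nr2f2 lies outside it. Nr2f6, or EAR2, is the third COUP factor and is known in the hindbrain and in immune cells. It read 313 and 269 against 301 and 290 at 1460648_at, a difference of 0.026 ± 0.16 (adjusted p = 0.932), with overlapping groups. Its second probe set, 1460647_a_at, read 125 and 102 against 93.8 and 98.4 and did not pass either (-0.21 ± 0.22), although both E14.5 arrays were below both E11.5 arrays. The suffix _a marks a probe set shared by several transcripts of the same gene.

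The ratio of 2 probe sets within an array does not depend on the scaling, so it was used to set family members against each other. This ratio was chosen after the values were seen. With the E11.5 mean set to 0, the log2 ratio of Nr2f2 to Nr2f1 was -0.18 and 0.18 at E11.5 and -1.86 and -1.15 at E14.5, a difference of -1.51. An exact two-sided permutation test over the 4 arrays gave p = 0.333, which is the smallest p that 2 against 2 arrays allow. Any groups that do not overlap give this value, so it adds nothing to the values themselves. The ratio of Nr2f6 to Nr2f1 was 0.10 and -0.10 at E11.5 and -0.21 and 0.027 at E14.5, with overlapping groups (difference -0.094, exact p = 0.667).

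**Figure D2:**
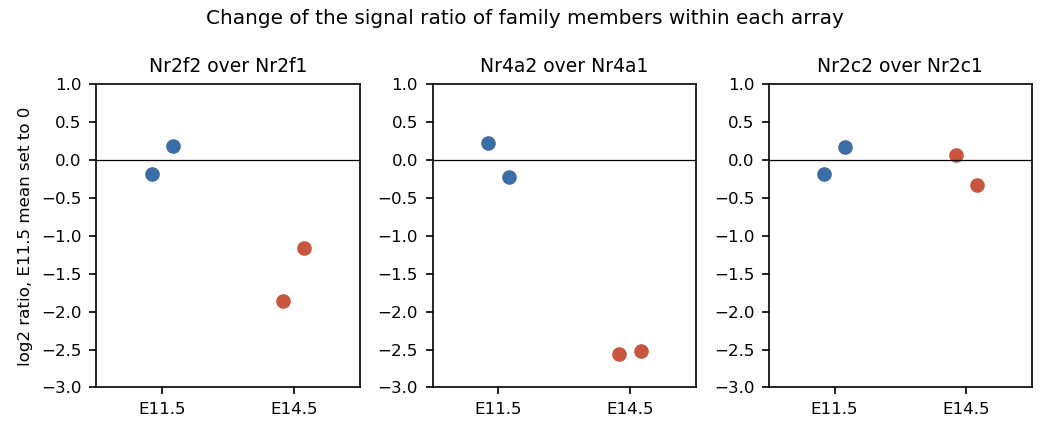
Log2 ratio of the brightest probe sets of 2 family members within each array, without pseudocount and with the mean of the 2 E11.5 arrays set to 0; blue points are E11.5 arrays and red points E14.5 arrays. The ratios of Nr2f2 to Nr2f1 and of Nr4a2 to Nr4a1 are lower on both E14.5 arrays, with differences of -1.51 and -2.54, and that of Nr2c2 to Nr2c1 overlaps between the groups.

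The NGFI-B family was divided in a like manner. Nr4a2, or Nurr1, is needed for midbrain dopaminergic neurons and marks early-born neurons of the subplate and claustrum in the forebrain. Its brightest probe set, 1455034_at, read 217 and 165 at E11.5 and 31.5 and 38.2 at E14.5. The groups did not overlap, the E14.5 mean was 0.183 times the E11.5 mean, and the difference was -2.09 ± 0.24 (adjusted p = 0.000218 in limma). By size of difference it ranked 379 among the 12952 genes, and Nr2f2 ranked 1037. The rank of Nr4a2 rests on a probe set that is the brightest through its E11.5 signal. At E14.5 its mean was 34.9, against 89.1 for 1450749_a_at, whose difference was -0.17 ± 0.35. Nr4a1, or Nur77, read 115 and 119 at E11.5 and 114 and 136 at E14.5 at its single probe set, 1416505_at. Its groups overlapped (0.084 ± 0.21, 95% interval -0.37 to 0.54, adjusted p = 0.817). The log2 ratio of Nr4a2 to Nr4a1 within an array was 0.22 and -0.22 at E11.5 and -2.55 and -2.52 at E14.5. The difference of this ratio was -2.54, with the exact permutation p of 0.333 that any groups without overlap give here.

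The 6 probe sets of Nr4a2 did not move alike. Lower signals were also seen at 1450750_a_at, with 139 and 142 against 38.7 and 45.7 (-1.48 ± 0.24, adjusted p = 0.00136). They were seen too at 1447863_s_at, with 126 and 136 against 56.4 and 63.0 (-0.99 ± 0.22, adjusted p = 0.00993); the suffix _s marks probes that can match transcripts of more than 1 gene. In contrast, 1450749_a_at read 63.6 and 155 at E11.5 and 73.2 and 105 at E14.5. Its E11.5 arrays stood 1.13 apart on the log2 scale, more than at any other tested probe set of the 9 genes, and the difference of -0.17 ± 0.35 did not pass. With the second E11.5 array left out that value was 0.40, and with the first E14.5 array left out it was 0.059. The probe sets 1433422_at and 1433423_at, which share 1 accession, were higher on both E14.5 arrays. The first read 23.8 and 27.0 against 51.6 and 32.0 (0.49 ± 0.35, adjusted p = 0.358), and the second, at 22.6 and 21.0 against 30.2 and 33.8, lay below the filter. With the 5 tested probe sets averaged the difference of Nr4a2 was -0.85 (adjusted p = 0.0126), less than that of the brightest probe set by over 1.5 times.

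The promoters of Nr4a1 and Nr4a2 are shown because these relatives differed in response while both are known targets of the cyclic AMP factor CREB. Sequences are from RefSeq on GRCm38.p6, 250 bases before the listed start, 5′ to 3′ on the gene's strand, and all 9 genes had at least 1 such window. Capitals mark the pentamer TGACG or its reverse complement, the core of the cyclic AMP response element. Nr4a1 lies on the plus strand (chr15:101266596-101266845) and Nr4a2 on the minus strand (chr2:57124004-57124253).
Nr4a1: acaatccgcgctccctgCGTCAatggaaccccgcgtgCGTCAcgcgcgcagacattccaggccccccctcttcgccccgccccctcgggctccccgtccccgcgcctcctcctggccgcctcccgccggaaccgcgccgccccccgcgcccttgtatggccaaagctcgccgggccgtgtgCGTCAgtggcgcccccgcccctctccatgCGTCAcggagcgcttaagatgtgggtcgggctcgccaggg
Nr4a2: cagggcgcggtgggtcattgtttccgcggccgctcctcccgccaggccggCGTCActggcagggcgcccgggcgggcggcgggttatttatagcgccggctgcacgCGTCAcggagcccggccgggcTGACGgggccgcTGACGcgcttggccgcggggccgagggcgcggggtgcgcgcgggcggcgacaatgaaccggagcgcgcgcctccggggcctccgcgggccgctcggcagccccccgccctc
Each window holds 4 such pentamers, counted on both strands, a number reached or passed by 0.137% of the 32851 windows in the table, each searched over the same 250 bases before its start, of which 17.8% hold at least 1. In Nr4a1 they begin 233, 213, 69 and 40 bases before the start, and in Nr4a2 200, 144, 123 and 111 bases before it. Neither window holds the full element TGACGTCA, which 1.55% of all windows do, nor the receptor hexamer AGGTCA, which 14% do. Such matches describe the letters only and show no binding. GC content was 74.4% for Nr4a1 and 80% for Nr4a2, with a median of 52.4% over those 250 bases of all windows. The shares given here are over all windows and not over windows of like GC content.

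The promoter of Nr2f2, the other receptor that fell, is shown for comparison with the Nr4a2 window (chr7:70366747-70366996, minus strand, same build and length).
Nr2f2: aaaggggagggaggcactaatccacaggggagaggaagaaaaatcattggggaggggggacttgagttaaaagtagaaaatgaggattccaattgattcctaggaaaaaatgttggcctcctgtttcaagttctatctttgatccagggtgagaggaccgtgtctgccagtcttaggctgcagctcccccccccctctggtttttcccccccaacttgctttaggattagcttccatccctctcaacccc
It holds neither TGACG nor AGGTCA on either strand, hence no capitals, and its GC content is 50%. The Nr2e1 window, at 58% GC, holds 1 full TGACGTCA beginning 125 bases before the start, whose letters include 2 of its 3 TGACG matches. The second listed window of Nr6a1 was the only member window with AGGTCA, at 2 places.

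Nr2e1, or Tlx, holds neural stem cells in the dividing state and represses astrocyte genes. It read 337 and 268 at E11.5 and 385 and 287 at E14.5 at 1434921_at, with overlapping groups (0.14 ± 0.19, 95% interval -0.29 to 0.57, adjusted p = 0.659). The dimmer 1457289_at read 112 and 139 against 106 and 86.6, lower on both E14.5 arrays but without passing the test (-0.34 ± 0.22, adjusted p = 0.315). The 2 probe sets thus had opposite signs and neither passed.

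Nr2c1 and Nr2c2 bind direct repeats of the receptor hexamer, singly or as a heterodimer. For Nr2c1, 1418605_at read 131 and 118 at E11.5 and 126 and 154 at E14.5 (0.15 ± 0.20, adjusted p = 0.657). Its other 3 tested probe sets ran from -0.24 to 0.40 and none passed; of these, 1439490_at was higher on both E14.5 arrays (79.6 and 91.1 against 93.6 and 144). The last, 1458338_x_at, read between 3.24 and 19.0 on all arrays and lay below the filter; the suffix _x marks probes that may bind other sequences.

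For Nr2c2, 1454851_at read 1361 and 1576 at E11.5 and 1556 and 1445 at E14.5, with a difference of 0.034 ± 0.13 (95% interval -0.26 to 0.33). The 2 dimmer probe sets that share another cDNA accession were lower at E14.5 on both arrays. Probe set 1425014_at read 165 and 204 against 114 and 108 and passed the test (-0.66 ± 0.20, adjusted p = 0.0371). That call ended when the second E11.5 array (-0.52) or the first (-0.70) or second (-0.63) E14.5 array was left out, under quantile normalization, without a filter and without the variance trend. Probe set 1451569_at read 354 and 311 against 204 and 283 (-0.44 ± 0.19, adjusted p = 0.125), and it passed with the second E14.5 array left out (-0.67). Probe set 1454167_at read 44.9 and 32.9 against 31.4 and 35.4 (-0.15 ± 0.33). The remaining 2, 1449605_at and 1439696_at, stayed below 10 on all 4 arrays and were not tested. The log2 ratio of Nr2c2 to Nr2c1 within an array was -0.18 and 0.18 at E11.5 and 0.067 and -0.33 at E14.5, and the groups overlapped.

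Nr6a1, or GCNF, silences pluripotency genes such as Pou5f1 in the early embryo. Its brightest probe set, 1428825_at, read 46.7 and 39.9 at E11.5 and 43.4 and 57.1 at E14.5 (0.16 ± 0.30, adjusted p = 0.75). Probe set 1421516_at read 22.6 and 37.1 against 53.8 and 61.3, higher on both E14.5 arrays, and did not pass after adjustment (0.74 ± 0.32, unadjusted p = 0.0427, adjusted p = 0.125). Probe set 1421515_at, of the same accession, read 10.8 and 6.97 against 20.4 and 19.6 and was below the filter. In the other direction, 1428826_at read 39.5 and 28.3 against 28.8 and 15.2 (-0.44 ± 0.38) with overlapping groups, and 1445872_at, below the filter, read 11.4 on both E11.5 arrays against 9.86 and 4.89.

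Over all members, 26 of 34 probe sets passed the filter. Of these 8 were lower at E14.5 and 0 higher, where 12.6% of all probe sets tested were lower, 11.1% higher and 23.7% one or the other. The 8 were 4 of Nr2f2, 3 of Nr4a2 and 1 of Nr2c2, so the count rests on few genes. Of those of Nr2f2, 1416160_at reached the filter only through its E11.5 signal. At an unadjusted limma p under 0.05 there were 9 lower and 1 higher, against 5084 lower and 4520 higher among all 27022 probe sets tested. Both E14.5 arrays were below both E11.5 arrays for 11 of the 26 and above for 3, with 31.9% and 30.1% over all probe sets. The median difference was -0.19 over the 26 and -0.011 over all probe sets. The calls over all probe sets number 3012 in the higher and 3396 in the lower direction, against 400 and 4929 without scaling.

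**Figure D3:**
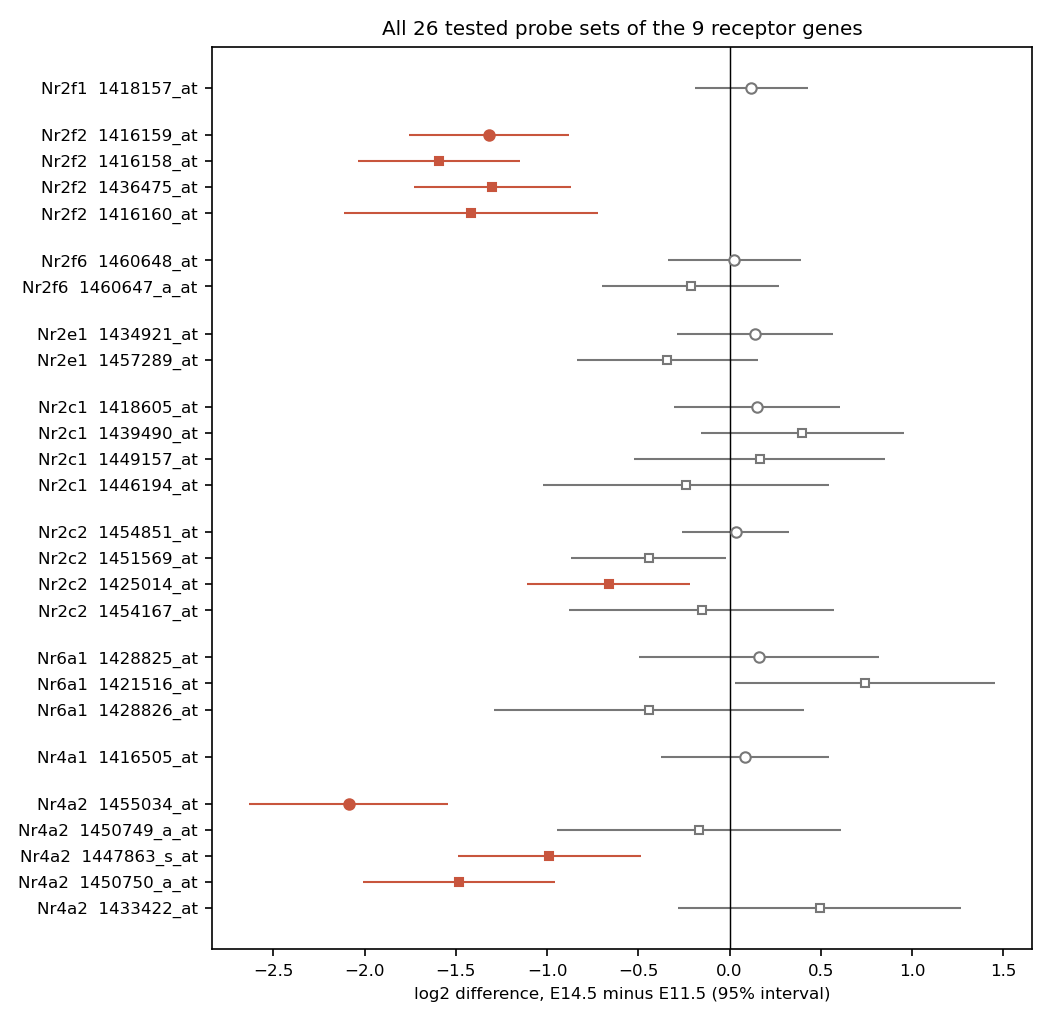
Log2 difference, E14.5 minus E11.5, of the 26 tested probe sets with 95% intervals; circles are the brightest probe set of a gene, squares the others, and filled red symbols passed the test as lower. The 4 probe sets of Nr2f2 lie together between -1.59 and -1.30, while those of Nr4a2 spread from -2.09 to 0.49; without scaling all values move down, and the 7 brightest probe sets that did not pass then lie between -0.74 and -0.45.

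Other nuclear receptors were read from lists drawn up from textbook knowledge. Of 16 other orphan receptors, 10 were tested, of which 4 were higher and 1 lower, with a median of 0.82. Over all genes tested 14.3% were higher and 13.6% lower, and the counts of all lists below stand beside these shares. The estrogen-related receptor Esrrb rose from a mean of 37.3 to 147 (1.74 ± 0.32). Rorb and Rora, the retinoid-related receptors, rose from 109 to 296 and from 44.4 to 110 (1.43 ± 0.31 and 1.10 ± 0.25). Esrrg fell from 97.0 to 38.3 (-1.09 ± 0.27). Nr4a3, the third NGFI-B receptor, went from a mean of 44.0 to 59.3 without passing (0.37 ± 0.42), nor did Esrra (163 and 215). Without scaling Esrrb, Rorb and Rora lost their calls, Rorb also without the variance trend and Rora with probe sets averaged. Esrrb was at 0.95 with probe sets averaged and Rorb at 0.89 with the second E11.5 array left out. For Esrrg the call ended with the first E11.5 array left out (-0.90), with no filter, and over averaged probe sets (-0.28).

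Among 20 ligand-regulated receptors 13 were tested, of which 3 were higher and 0 lower (median 0.34), beside 14.3% and 13.6% over all genes. The glucocorticoid receptor Nr3c1 rose from 88.1 to 346 (1.80 ± 0.23), Ppard from 63.1 to 113 (0.74 ± 0.24, adjusted p = 0.0488) and the thyroid hormone receptor Thra from 965 to 1596 (0.71 ± 0.14; -0.060 without scaling). The retinoid X receptors, common partners of nuclear receptors, did not pass, with means of 373 and 441 for Rxrb and 127 and 145 for Rxra. The calls of the 3 that rose were lost without scaling, that of Thra also without the variance trend. The call of Ppard also ended when the first E11.5 array (0.58) or the first (0.82) or second (0.66) E14.5 array was left out, with arrays set to a common median, without a filter and without the variance trend.

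**Figure D4:**
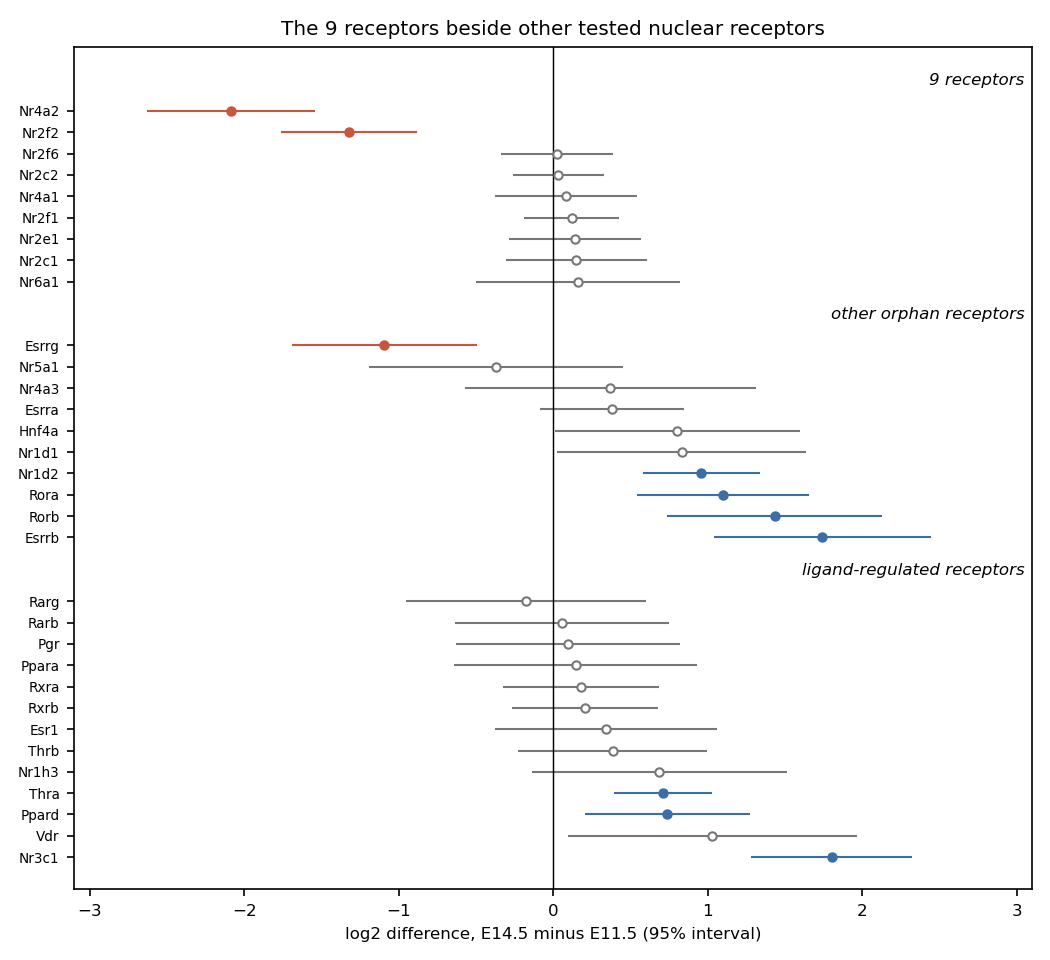
Log2 difference with 95% interval of the brightest probe set of the 9 receptors, of 10 other orphan receptors and of 13 ligand-regulated receptors; red symbols passed as lower, blue as higher and open symbols did not pass. Of the 9 receptors Nr4a2 and Nr2f2 lie below 0 and the rest near it, and without scaling the values of all receptors move down, Thra to -0.060.

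Cofactors of the COUP factors and Tlx showed 3 of 20 lower and 2 higher, with a median of -0.099. Both counts are near the shares over all genes, 13.6% lower and 14.3% higher. Bcl11b and Bcl11a, zinc-finger proteins first found as partners of COUP factors and also neuronal regulators, fell from means of 902 to 208 (-2.05 ± 0.15) and 839 to 201 (-2.01 ± 0.17). Zfpm2, or Fog2, a corepressor that binds Nr2f2, rose from 410 to 665 (0.68 ± 0.16; -0.083 without scaling), and the coactivator Ncoa1 from 359 to 521 (0.53 ± 0.15; -0.23 without scaling). The third that was lower, named after the values were seen, is the histone deacetylase Hdac1, with means of 1088 and 783 (-0.47 ± 0.14, adjusted p = 0.036 in limma). Its call ended when the first E11.5 array (-0.36) or the first (-0.38) or second (-0.55) E14.5 array was left out, without scaling (-1.23), without a filter and without the variance trend. The deacetylase Hdac2 (2450 and 2104) and the demethylase Kdm1a (2246 and 2134) did not pass, but Hdac2 passed as lower under quantile normalization (-0.33) and with probe sets averaged (-0.39). Zfpm2 no longer passed with the second E14.5 array left out (0.56), over averaged probe sets (0.16) or without the variance trend. Ncoa1 no longer passed when the second E11.5 array (0.43) or the first (0.53) or second (0.52) E14.5 array was left out, with a common median and without the variance trend.

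Genes described as targets of the receptors were also counted, some of which are linked to them only indirectly. Of 14 tested genes linked to COUP factors 9 were lower and 2 higher (median -0.80), beside 13.6% and 14.3% over all genes. The guidance receptor Nrp2 fell from 788 to 171 (-2.13 ± 0.16), the interneuron factor Sp8 from 360 to 46.9 (-2.69 ± 0.26) and Otx2 from 328 to 67.9 (-2.06 ± 0.21), while Egfr rose from 102 to 2650 (4.53 ± 0.14). With probe sets averaged Nrp2 was at -1.11 and Egfr at 2.67. Rnd2, a regulator of neuronal migration that COUP-TFI represses, stood at means of 839 and 1056 without passing, as did Vax1 (115 and 129).

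Of 10 tested targets of Tlx 3 were higher and 3 lower (median -0.30), beside 14.3% and 13.6% over all genes. Those higher were the astrocyte genes Aqp4 (21.3 to 522; 3.96 ± 0.21), Gfap (22.2 to 113; 1.77 ± 0.34) and S100b (11.1 to 49.4; 1.42 ± 0.42). All 3 had E11.5 means below the filter of 27.3, so they were tested only through their E14.5 signal. The cell cycle inhibitor Cdkn1a, which Tlx represses, fell from 615 to 309 (-0.92 ± 0.21), a call lost without the variance trend; it was at -0.59 with the first E11.5 array left out and at -1.46 with probe sets averaged. Wnt7a (360 and 389) and Hes1 (277 and 231) did not pass. S100b no longer passed when the second E11.5 array (0.99) or the first E14.5 array (1.19) was left out, with a smaller pseudocount, or with no filter, and a larger pseudocount gave 0.79.

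Of 10 targets of GCNF only 5 were bright enough to test, and Pou5f1 and Nanog were among those that were not. Sox2 rose from 2730 to 4143 (0.60 ± 0.12; -0.18 without scaling, and not passing without the variance trend). The germ cell genes Gdf9 (48.7 and 59.2) and Prm1 (36.1 and 50.8) did not pass.

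Nr4a genes belong to the immediate early response, of which 15 of 20 listed genes were tested, 4 higher and 3 lower (median 0.012). Over all genes 14.3% were higher and 13.6% lower. Fos rose from 90.3 to 294 (1.59 ± 0.21), Atf3 from 14.6 to 61.8 (1.48 ± 0.37) and Btg2 from 391 to 824 (1.05 ± 0.16), while the phosphatase Dusp1 fell from 860 to 402 (-1.08 ± 0.16). Jun (701 and 653) and Egr1 (194 and 209) did not pass. Without scaling Fos, Atf3 and Btg2 lost their calls, and Atf3 also did with the second E11.5 array left out (1.12) and with no filter, and was at 0.88 with a larger pseudocount. The E11.5 mean of Atf3 was below the filter of 27.3, so it was tested only through its E14.5 signal.

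Dopaminergic genes linked to Nr4a2 were mostly dim, with 7 of 15 below the filter, among them the transporter Slc6a3 and the factor Pitx3. Of the 8 tested 1 was lower and 0 higher (median -0.18), beside 13.6% and 14.3% over all genes. The lower gene was the vesicular monoamine transporter Slc18a2, which went from 87.8 to 29.6 (-1.28 ± 0.35, adjusted p = 0.0222). Th, the rate-limiting enzyme of dopamine synthesis, stood at means of 59.0 and 32.6 without passing (-0.67 ± 0.31, adjusted p = 0.154), but passed without scaling (-1.25). Ret had means of 40.9 and 47.2. Slc18a2 no longer passed when the second E11.5 (-1.05) or second E14.5 array (-0.88) was left out, with no filter, or without the variance trend.

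Genes with the most similar values over the 4 arrays were found by the root mean square distance of log2 signals, each centred on its own mean. For Nr2f2 these were Add2, a cytoskeletal adducin (distance 0.031, difference -1.33), and Prdm4 (0.053, -1.24). For Nr4a2 they were Fign (0.062, -2.05) and Tpd52l1 (0.065, -2.07, or -1.21 with a larger pseudocount). With 4 arrays in 2 groups, such likeness reflects mainly the size of the difference between the groups.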

How the data were processed

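The deposited table holds 1 linear intensity per probe set and array for 4 Affymetrix arrays. Per the submitters' processing notes the authors used GCOS, software of the array's maker, to compute each intensity. Which version and settings is not given in the sources used here. No detection calls entered. RNA was copied with an oligo-dT primer, 5 µg per sample, per the labels' protocols. Of 45101 probe sets 64 were controls and were set aside. The platform annotation named 1 gene for 34945, several for 932 and none for 9160. Only the first were named, with symbols looked up by Entrez identifier.

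Trimmed means (2%) differed up to 2.43-fold between arrays, from 103 to 252, beyond a limit of 5%, so arrays were scaled by factors of 0.691 to 1.68. Probe sets at or above the 40th percentile of mean signal (27.3) were tested, with the 25th percentile of all values (12.8) as pseudocount. That mean is over all 4 arrays, so a probe set can reach it through 1 group alone. limma 3.58.1 in R 4.3.3 (lmFit, eBayes with a variance trend, 2 residual and 7.99 prior degrees of freedom) gave differences. It was run first on simulated data with 100 changes of log2 size 1 and 100 of size 2. Of these 72 and 100 were recovered, with 23 false calls. The simulated noise was independent between probe sets, and far fewer probe sets changed than were called here. The number of arrays limits the precision.

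The receptors and gene lists were chosen with earlier results of these data known. Every member is named. Each pathway list gives up to 4 genes that passed, by size, and up to 2 that did not, by signal; for each member that passed, the 2 genes nearest in pattern are named, leaving out clone and predicted symbols, a step added after the data were seen. Marker lists are given as counts and sums. The first and second array of a group are replicates 1 and 2 of the titles. The arrays were not treated as paired by these numbers. The deviations of same-numbered arrays correlated at 0.0041 across probe sets. That value shows no strong shared deviation but cannot settle whether same-numbered arrays were prepared together.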

Additional observations from a re-analysis of the deposited data

How the results depend on the processing

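With 2 arrays per group and no detection calls, signals near the pseudocount are the least certain. Nr2f2 kept its direction and call in 14 settings (-2.06 to -1.13) and so did Nr4a2 (-2.74 to -0.85); 2 members were lower and 0 higher in each. With the replicate number as a block, 3312 probe sets were higher and 3861 lower, and the calls of both genes and of the named list genes were unchanged. Of all probe sets 3012 were higher and 3396 lower, against 400 and 4929 without scaling and 1919 and 2097 without the variance trend. Leaving out 1 array gave 2256 to 3148 higher and 2750 to 3405 lower. Of the genes of the 8 pathway lists, 19 were higher and 20 lower, against 3 and 20 without scaling and 13 and 12 without the trend.

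Without scaling, which moved the median of all genes from 0.029 to -0.69, these differences turned negative: Nr2f1 -0.65, Nr2f6 -0.72, Nr2e1 -0.61, Nr2c1 -0.56 (1439490_at -0.30, 1449157_at -0.47), Nr2c2 -0.74, Nr6a1 -0.45, Nr4a1 -0.62 and 1433422_at of Nr4a2 -0.049. Among list genes the same held for Egr1 (-0.63), Esrra (-0.34), Gdf9 (-0.51), Ncoa1 (-0.23), Nr4a3 (-0.27), Prm1 (-0.20), Ret (-0.44), Rnd2 (-0.45), Rxra (-0.52), Rxrb (-0.55), Sox2 (-0.18), Thra (-0.060), Vax1 (-0.48), Wnt7a (-0.64) and Zfpm2 (-0.083). Nr2c2 also turned under quantile normalization (-0.020), a common median (-0.0077) and averaged probe sets (-0.31), Nr2f6 under a common median (-0.014) and averaged probe sets (-0.093), and Nr2e1 under averaged probe sets (-0.10).

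Leaving out 1 array turned the sign of the following, given as lowest and highest values: Nr2f1 (-0.024 and 0.26), Nr2f6 (-0.080 and 0.13), Nr2e1 (-0.064 and 0.34), Nr2c2 (-0.071 and 0.14; 1454167_at -0.32 and 0.013), Nr2c1 1449157_at (-0.16 and 0.49), Nr4a1 (-0.027 and 0.20), Nr4a2 1450749_a_at (-0.73 and 0.40), Nr4a3 (-0.17 and 0.91), Egr1 (-0.0036 and 0.20), Gdf9 (-0.42 and 0.67), Jun (-0.26 and 0.050), Kdm1a (-0.18 and 0.043), Rxra (-0.013 and 0.37), Rxrb (-0.10 and 0.51), Vax1 (-0.23 and 0.64) and Wnt7a (-0.00044 and 0.22). None of these had passed the test, and the cause was not tested. A stricter filter left no value for Nr6a1. Probe sets averaged by gene give no count of probe sets.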
